A study of Saccharomyces cerevisiae with 30 samples.

Results

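The mRNAs of 49 yeast genes that build ribosomes were followed through 18 RNA-seq libraries from *Saccharomyces cerevisiae* cells induced to enter meiosis. The 49 genes were chosen by name from the 7126 genes counted in each library, for what their proteins do. The rule used no measured value, though earlier results of these data were known when the genes were chosen. They comprise 7 core proteins of small nucleolar ribonucleoproteins (snoRNPs), 15 genes of the small subunit (SSU) processome and 40S assembly, 6 RNA helicases, 13 factors of 60S assembly, 4 GTPases and ATPases of 60S maturation, and 4 subunits of RNA polymerase I. Ribosomes are assembled in the nucleolus, where RNA polymerase I transcribes the ribosomal RNA precursor, snoRNPs guide its chemical modification, and large sets of assembly factors fold it, cut it and join it to ribosomal proteins. In growing yeast these genes are transcribed as one regulon that responds to nutrients through the TOR and protein kinase A pathways. Starvation, which also triggers meiosis, is known to repress them.

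The libraries compared 3 strains, each 1 strain of the SK288C diploid background (S288C carrying SK1 alleles that promote sporulation), and all 3 had marker mutations in *HIS3*, *LEU2*, *LYS2* and *URA3*. WT and *ime4-cat* were homozygous for the highly expressed *rme1-S288C* allele, from which *rme1-10* differs in the 3′ UTR only. *RME1* encodes a repressor of meiotic entry whose mRNA carries m6A, a methylated adenosine placed by the methyltransferase Ime4p. Wild type (WT) was *IME4*/*IME4*, *ime4-cat*/*ime4-cat* made a catalytically inactive enzyme, and *rme1-10* carried an A-to-T change at the methylated site in the 3′ UTR of *RME1*. SPO media, a potassium acetate medium that induces meiosis, held every culture for 5 h before harvest. Poly(A) RNA was sequenced from total lysate and from pooled polysome fractions of a sucrose gradient, which hold mRNAs that carry several ribosomes, with 3 libraries for each of the 6 combinations of strain and fraction. Groups were taken from the strain number and fraction letter of each deposited table, since the sample titles disagree with these for 12 of the 18 libraries and match them for the WT and *ime4-cat* polysome libraries only.

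Libraries held 586141 to 6009889 reads counted on genes, with 586141 to 1262397 in polysome libraries and 650668 to 6009889 in total RNA. The levels below are counts per 1000000 gene counts (CPM), scaled for library composition. The strain numbers in the table names were checked against the target of the study: *RME1* was at 74.2 to 109 CPM in the 6 WT libraries, at 162 to 240 CPM in the 6 *ime4-cat* libraries and at 110 to 170 CPM in the 6 *rme1-10* libraries. *SPO11*, the meiotic endonuclease, was at 97.9 to 137 CPM in WT, at 21 to 65 CPM in *ime4-cat* and at 92.8 to 124 CPM in *rme1-10*. Neither gene checks the fraction letter, on which the comparisons of polysomal with total RNA rest. *LEU2* and *URA3* had no count in any of the 18 libraries, *LYS2* was at 0.916 CPM in 1 library and 0 in the others, and *HIS3*, whose marker allele lacks only part of the gene, was at 66.3 to 194 CPM. Library 3 of *ime4-cat* total RNA stood apart, with a median correlation of 0.901 to its own group against 0.932 to 0.984 for the other libraries, and with *IME2*, a meiotic kinase, at 550 CPM against 201 and 203 CPM in its replicates. Counts of calls among the chosen genes are therefore given with and without this library. Other results from *ime4-cat* total RNA, among them levels and the gene lists outside the chosen set, are mostly given with it only.

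The 49 genes lie on 14 chromosomes. Most carry the 2 short promoter elements by which this regulon is known in yeast: the PAC element, GATGAG, which the repressors Dot6p and Tod6p bind, and the RRPE element, AAAATTTT, which Stb3p binds. Within 250 bases before the start codon and on either strand, PAC was present in 47 of 49 genes (95.9%), RRPE in 41 (83.7%) and both in 40 (81.6%). Among all 6001 protein-coding genes the shares were 17%, 8.65% and 4.08%, and among 138 cytosolic ribosomal protein genes they were 10.1%, 6.52% and 0.725%. *UTP4* and *UTP22* had no exact PAC match in this window. Each PAC match began 57 to 220 bases before the start codon (median 119 bases over 75 matches), and 22 of the genes had more than 1 match, which may overlap. A match is a description of the letters and not evidence of binding. The sequences below, from RefSeq assembly R64 and read 5′ to 3′ on the strand of the gene, are shown for the genes whose mRNA levels the comparisons turn on and for the largest subunits of RNA polymerase I, with 1 PAC match in capitals, which appears as CTCATC where the element lies on the opposite strand.
*NUG1* (chrV:162608-162637, plus strand): ttcgagcgaggcGATGAGatgagctaatta
*NOP4* (chrXVI:469812-469841, plus strand): agtctatctcatCTCATCgtttattctgaa
*MPP10* (chrX:438778-438807, plus strand): tttcaattttgcGATGAGctcttgaagaaa
*SPB4* (chrVI:146984-147013, minus strand): tgagcttttcaaGATGAGctgagcccattg
*RPA190* (chrXV:960803-960832, plus strand): tttatttcaaatCTCATCtcatctcttaaa
*RPA135* (chrXVI:581288-581317, minus strand): gcatcttagagaCTCATCtcatctcttaat

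In these cells the mRNAs of the regulon were scarce. Per kilobase of coding sequence, the median level of the 49 genes in WT total RNA was 16.4 CPM per kb, against a median of 52.8 CPM per kb over all genes tested and 152 CPM per kb for cytosolic ribosomal protein genes. In that group 37 of the 49 genes lay below percentile 25 of all genes, 22 below percentile 10, and 4 lay above the median of all genes (*NHP2*, *NOP10*, *KRR1* and *NOP4*). The median percentile of the 49 genes was 11.1 in WT total RNA, 14.9 in *ime4-cat* total RNA and 11.3 in *rme1-10* total RNA, and it was 9.38, 12.6 and 10.8 in the polysome libraries of the same strains. Together the 49 genes took 0.129% to 0.186% of the gene counts of a library. The median count of a gene in a library was 33 reads, and 22 of the 49 genes fell under 10 reads in at least 1 library, so that single genes were measured with a wide error.

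By role, the median level in WT total RNA was 27.6 CPM per kb for the snoRNP core proteins, 23.5 for the 60S assembly factors, 16.9 for the GTPases and ATPases, 14.4 for the RNA polymerase I subunits, 12.6 for the helicases and 11.9 for the 40S and processome genes. The highest level per kilobase belonged to *NOP10*, a small H/ACA snoRNP protein, at 176 CPM per kb. It was followed by *KRR1*, a 40S assembly factor, *NOP4*, an RNA-binding protein of 60S assembly, and *NHP2*, a second H/ACA protein, at 57.7, 56 and 53.7 CPM per kb. The lowest was *MAK5*, a helicase of 60S assembly, at 5.69 CPM per kb. The roles overlapped widely, since the snoRNP core spanned 7.11 to 176 CPM per kb and the 40S genes 6.68 to 57.7 CPM per kb.

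**Figure D1:**
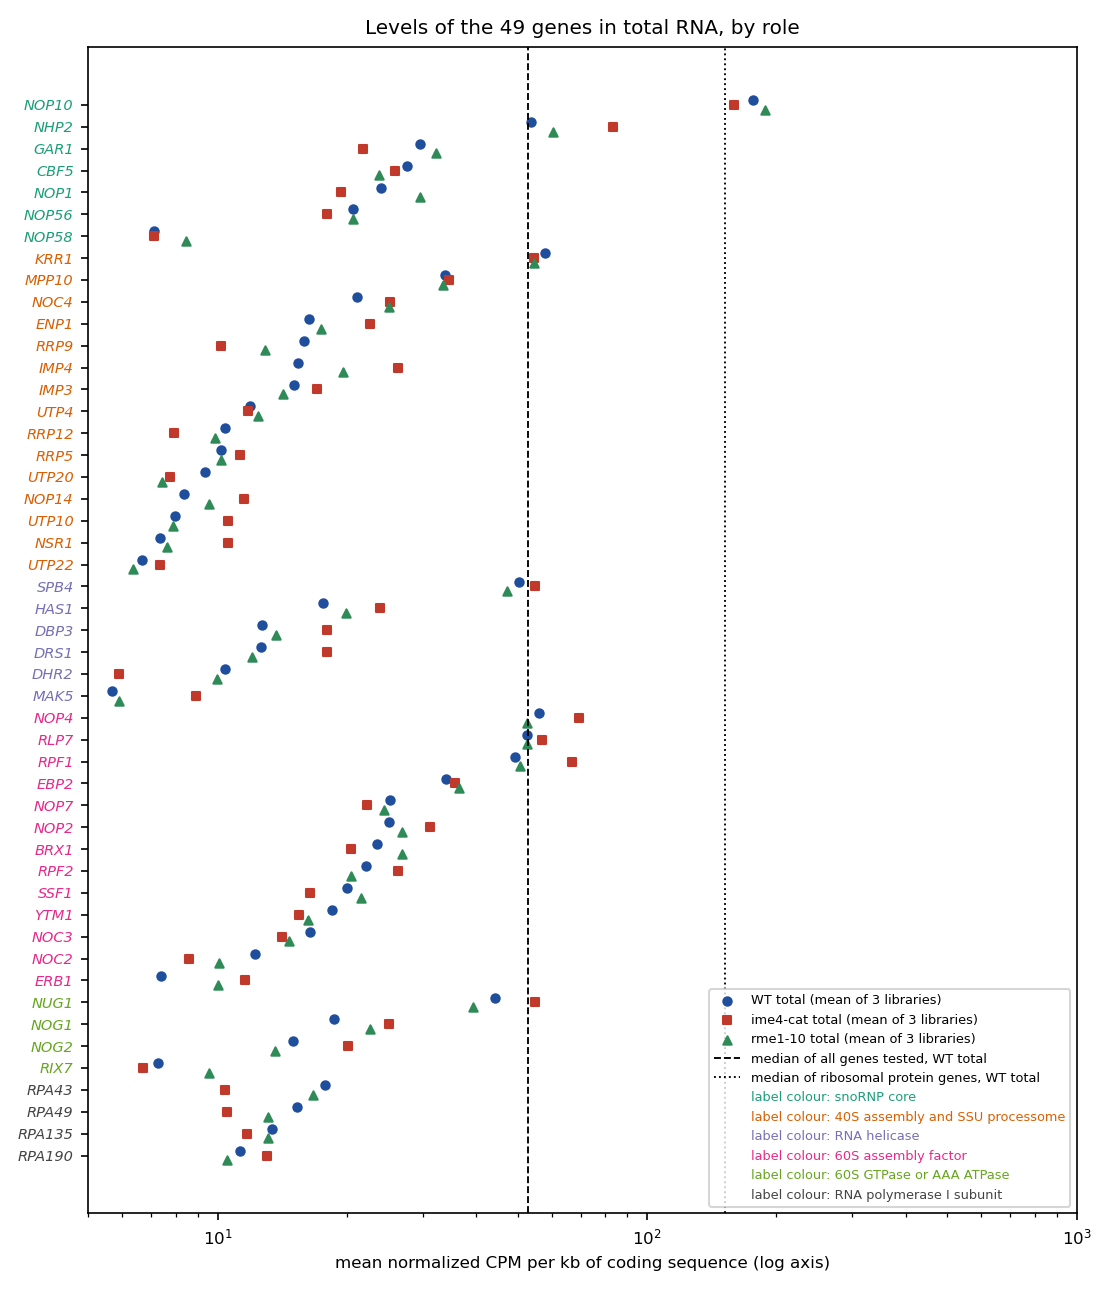
Mean level of each of the 49 genes in total RNA of the 3 strains (CPM per kb of coding sequence, log axis, 3 libraries each), grouped by role, with the median of all genes tested in WT (dashed, 52.8) and of ribosomal protein genes (dotted, 152). Most genes of every role lie under the dashed line in all 3 strains, and *NOP10*, *KRR1*, *NOP4* and *NHP2* lie above it in WT.

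The first comparison asked how loss of Ime4p catalysis changed the polysomal mRNA of these genes. Between *ime4-cat* and WT polysomes 2 of the 49 genes were higher, *NOP4* and *NUG1*, none was lower, and 47 did not pass the test (edgeR quasi-likelihood test over 5891 genes, Benjamini-Hochberg adjusted p under 0.05). The background of calls among all genes was 5.96% higher and 6.65% lower, so the share of the 49 genes called higher, 4.08%, was near it. The median log2 fold change of the 49 genes was 0.18, and 39 of them (79.6%) lay above 0, against a median of 0.00 and 50.2% above 0 over all genes. Without WT polysome library 1 that median was 0.33, and *UTP4*, a processome protein tied to rRNA transcription, passed in place of *NOP4*. The 3 *ime4-cat* libraries all lay above the 3 WT libraries for 10 of the genes and all below for 1, where 15.4% and 16.2% of all genes did so. With the replicate number within each fraction as a block, a fit added after the data were seen, 4 genes were higher, *UTP4* and *RPA190* beside *NOP4* and *NUG1*, with a background of 10.5% higher and 9.95% lower. At an unadjusted p under 0.05, 10 of the 49 genes were higher and 1 lower, beside 13.1% and 12.9% of all genes. In such cultures a different mix of cells and a different amount of mRNA per cell cannot be told apart. The p-values measure the spread between libraries, which the study's methods call biological replicates while the labels do not say that they came from separate cultures. Meiotic genes moved in the same comparison, with *HOP1* and *ZIP1*, of the meiotic chromosome axis and synaptonemal complex, at 377 to 452 and 253 to 383 CPM in the WT polysome libraries and at 148 to 192 and 115 to 129 CPM in those of *ime4-cat*. The part of this shift in the values of the 49 genes was not tested.

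*NUG1* (YER006W) encodes a GTPase needed to export the pre-60S particle from the nucleus. It was at 45.9, 44 and 56.9 CPM in the WT polysome libraries and at 79.5, 73.2 and 85.4 CPM in those of *ime4-cat*. Every *ime4-cat* library lay above every WT library, a log2 fold change of 0.68 (SE 0.17, edgeR adjusted p = 0.0088), and the call held in all 29 alternative settings. The other proteins of this role are the GTPases Nog1p and Nog2p and the AAA ATPase Rix7p, which strip or remodel factors on the pre-60S particle. All 4 genes had a fold change above 0, with *RIX7* (YLL034C) the lowest at a log2 fold change of 0.09 (SE 0.37). Its levels were 21.1, 11 and 13.1 CPM in WT and 17.4, 19.3 and 12.2 CPM in *ime4-cat*, so that the groups overlapped.

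*NOP4* (YPL043W) encodes a nucleolar protein with RNA recognition motifs that acts early in 60S assembly. Its mRNA was at 104, 119 and 108 CPM in WT polysomes and at 170, 200 and 167 CPM in *ime4-cat* polysomes. The groups did not overlap, and the log2 fold change was 0.70 (SE 0.18, edgeR adjusted p = 0.013). The call was lost without WT polysome library 1 (0.65, adjusted p = 0.056) or without *ime4-cat* polysome library 2 (0.61, adjusted p = 0.062), by the same edgeR test. Of the 13 genes of 60S assembly, 12 lay above 0, with a median log2 fold change of 0.21. The exception was *NOC3* (YLR002C), whose protein takes part in the transport of pre-60S particles and in replication licensing. It was at 23.8, 26.7 and 33.1 CPM in WT and 32.7, 27 and 13.9 CPM in *ime4-cat*, with overlapping groups and a log2 fold change of −0.15 (SE 0.28).

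The helicases were divided, with a median log2 fold change of 0.44 and values from −0.87 to 0.95, and none of the 6 passed the test. *MAK5* (YBR142W) was at 11.9, 6.28 and 10 CPM in WT polysomes and 24, 17.3 and 13.9 CPM in *ime4-cat* polysomes. These groups did not overlap, yet they rest on 4 to 22 reads a library, and the log2 fold change of 0.95 (SE 0.40) had an edgeR adjusted p of 0.13. *DHR2* (YKL078W), a DEAH-box helicase needed for 18S rRNA, was at 12.8, 11 and 15.4 CPM in WT and 10.9, 3.85 and 5.23 CPM in *ime4-cat*, on 2 to 20 reads. It was the only gene of the 49 with every *ime4-cat* library below every WT library, at a log2 fold change of −0.87 (SE 0.41, edgeR adjusted p = 0.19), or −1.54 without *ime4-cat* polysome library 1. *DRS1* (YLL008W), a DEAD-box helicase of 60S assembly named here after its values were seen, was at 33, 36.1 and 29.2 CPM in WT and 62.1, 55.9 and 57.5 CPM in *ime4-cat*. Its groups lay clearly apart, at a log2 fold change of 0.86 (SE 0.33, edgeR adjusted p = 0.09).

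Among the 15 genes of the SSU processome and 40S assembly, 12 lay above 0 and none passed the test, with a median log2 fold change of 0.23. The extremes were genes with few reads. *NSR1* (YGR159C), the yeast homolog of nucleolin, was at 4.59, 3.14 and 0.769 CPM in WT polysomes (5, 2 and 1 reads) and at 8.71, 9.63 and 6.97 CPM in *ime4-cat* polysomes (8, 5 and 4 reads). The groups were apart, and the log2 fold change of 1.63 carried an SE of 0.67 and an edgeR adjusted p of 0.11, and it was 1.07 without WT polysome library 3. *IMP3* (YHR148W), a partner of Mpp10p in the U3 snoRNP, was at 4.59, 1.57 and 6.15 CPM in WT and at 6.53, 0 and 3.49 CPM in *ime4-cat*. The groups overlapped (log2 fold change −0.22, SE 0.85), and the library at 0 allows a level of up to 5.78 CPM, the value of 3 reads.

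None of the 7 snoRNP core genes passed the test. Their median log2 fold change was 0.17, and 5 lay above 0. *NOP56* (YLR197W), a scaffold protein of C/D snoRNPs, was at 37.6, 40.8 and 30.8 CPM in WT polysomes and 52.3, 46.2 and 33.1 CPM in *ime4-cat* polysomes. The groups overlapped, at a log2 fold change of 0.31 (SE 0.34). *GAR1* (YHR089C), an H/ACA snoRNP protein, was at 22, 31.4 and 24.6 CPM in WT and 9.8, 30.8 and 10.5 CPM in *ime4-cat*. The libraries of *ime4-cat* were divided, with 1 at the WT level and the others lower, at a log2 fold change of −0.68 (SE 0.43). It was −0.33 without *ime4-cat* polysome library 1 and −1.34 without library 2.

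Of the 4 subunits of RNA polymerase I, both catalytic subunits had a fold change above 0 and the others below. *RPA190* (YOR341W), the largest subunit, was at 44, 25.1 and 35.4 CPM in WT polysomes and 50.1, 52 and 66.3 CPM in *ime4-cat* polysomes. Its groups were apart, at a log2 fold change of 0.64 (SE 0.27, edgeR adjusted p = 0.13). *RPA135* (YPR010C), which forms the active centre with it, was at 33.9, 23.6 and 24.6 CPM in WT and 32.7, 44.3 and 47.1 CPM in *ime4-cat*, with a slight overlap and a log2 fold change of 0.55 (SE 0.28). *RPA43* (YOR340C), the stalk subunit that contacts the initiation factor Rrn3p, was at 11.9, 11 and 21.5 CPM against 13.1, 9.63 and 8.72 CPM, a log2 fold change of −0.51 (SE 0.39) that was −0.08 without WT polysome library 3. *RPA49* (YNL248C), a subunit that aids initiation and elongation, was at 14.7, 9.43 and 13.1 CPM against 12, 9.63 and 6.97 CPM, a log2 fold change of −0.37 (SE 0.70). Both of these groups overlapped, and none of the 4 subunits passed the test, although *RPA190* did with the replicate block within fraction. *RPA190* and *RPA43* are divergent neighbours on chromosome XV, with 804 bases between them.

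**Figure D2:**
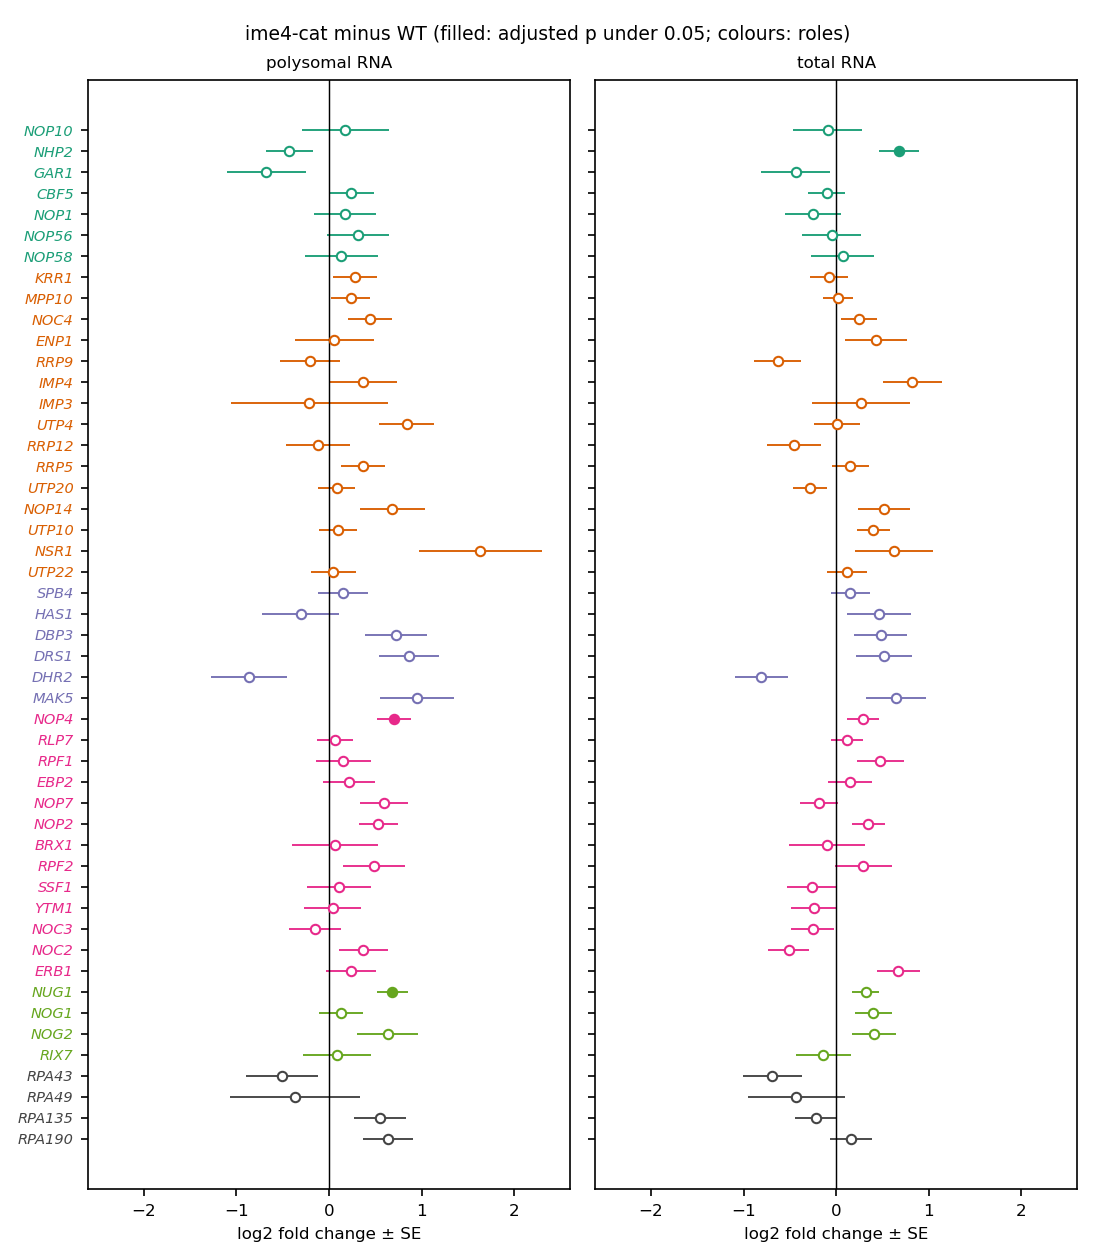
Log2 fold change of *ime4-cat* against WT for each of the 49 genes in polysomal and in total RNA, with bars for the SE of the fit and filled points for an edgeR adjusted p under 0.05 (3 libraries a group). *NOP4* and *NUG1* are filled in polysomal RNA and *NHP2* in total RNA, and most other bars reach across or near 0.

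The intervals show what these libraries could resolve. In polysomal RNA the median SE of a log2 fold change over the 49 genes was 0.31, and the 95% interval lay within 1 log2 unit of 0 for 26 of them, so that a change of 1 log2 unit could not be set aside for the others. Without *ime4-cat* total library 3, which enters this comparison through the shared estimate of the spread, 4 genes passed (edgeR adjusted p from 0.0014 to 0.046). They were *NOP4* and *NUG1* with *DRS1* (log2 fold change 0.87) and *UTP4* (0.84). The background was then 8.66% higher and 9.3% lower.

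In total RNA the same strains were compared with all mRNA in the lysate. One snoRNP gene was higher in *ime4-cat*, none was lower, and 48 did not pass, where 7.55% of all genes were higher and 7.18% lower. The median log2 fold change of the 49 genes was 0.12 and 29 lay above 0 (59.2%), against 0.01 and 51% over all genes. The median of the 49 genes was 0.00 without *ime4-cat* total library 1 and 0.06 without WT total library 3. Libraries of *ime4-cat* lay wholly above WT for 8 of the genes and wholly below for 4, where 13.3% and 14.2% of all genes did so.

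The gene called was *NHP2* (YDL208W), which binds H/ACA snoRNAs and is named after its values were seen. It was at 30.9, 22.5 and 22.5 CPM in WT total RNA and 38, 31.6 and 48.2 CPM in *ime4-cat* total RNA, with no overlap but a narrow gap, at a log2 fold change of 0.68 (SE 0.22, edgeR adjusted p = 0.038). The call was lost without WT total library 2 or 3, *ime4-cat* total library 1 or 3, or *rme1-10* total library 2 or 3 (edgeR adjusted p from 0.053 to 0.18, log2 fold change 0.53 to 0.70). It was also lost by DESeq2 (adjusted p = 0.056). In edgeR it was lost too without scaling for library composition (adjusted p = 0.094) or with only the 2 groups compared (0.19). With groups taken from titles the log2 fold change of *NHP2* was −0.46 (edgeR adjusted p = 0.14). In polysomal RNA its log2 fold change was −0.43 (SE 0.25), with overlapping libraries. In a fit that paired libraries by replicate number (a block), 2 genes passed, *NHP2* higher and *DHR2* lower. The background of that fit was 9.86% higher and 9.25% lower over all genes. *DHR2* was at 23.5, 21.4 and 23.7 CPM in WT total RNA and 11.9, 9.02 and 18.2 CPM in *ime4-cat* total RNA, all below WT, and its log2 fold change without the block was −0.81 (SE 0.29, edgeR adjusted p = 0.061).

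For several of the 49 genes the total RNA result turned on *ime4-cat* library 3. *DRS1* was at 28, 27.6 and 29.8 CPM in WT and at 45.8, 60.6 and 15.7 CPM in *ime4-cat*, with library 3 below every WT library and its replicates above. *NOP4* was at 100, 130 and 116 CPM in WT and 152, 175 and 101 CPM in *ime4-cat*, again with library 3 the lowest of its group. Without that library 4 genes were higher, namely *DRS1* (log2 fold change 0.88), *NOP4* (0.48), *IMP4*, another partner of Mpp10p (0.92), and *ERB1*, a scaffold of the Nop7p complex of 60S assembly (0.72). In the same fit 3 genes were lower, namely *DHR2* (−1.09), *RRP12*, a factor of pre-ribosome export (−0.84), and *RPA135* (−0.56), and *NHP2* no longer passed. The edgeR adjusted p of these 7 calls ran from 0.0017 to 0.041, and the background without the library was 11% higher and 10.7% lower.

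**Figure D3:**
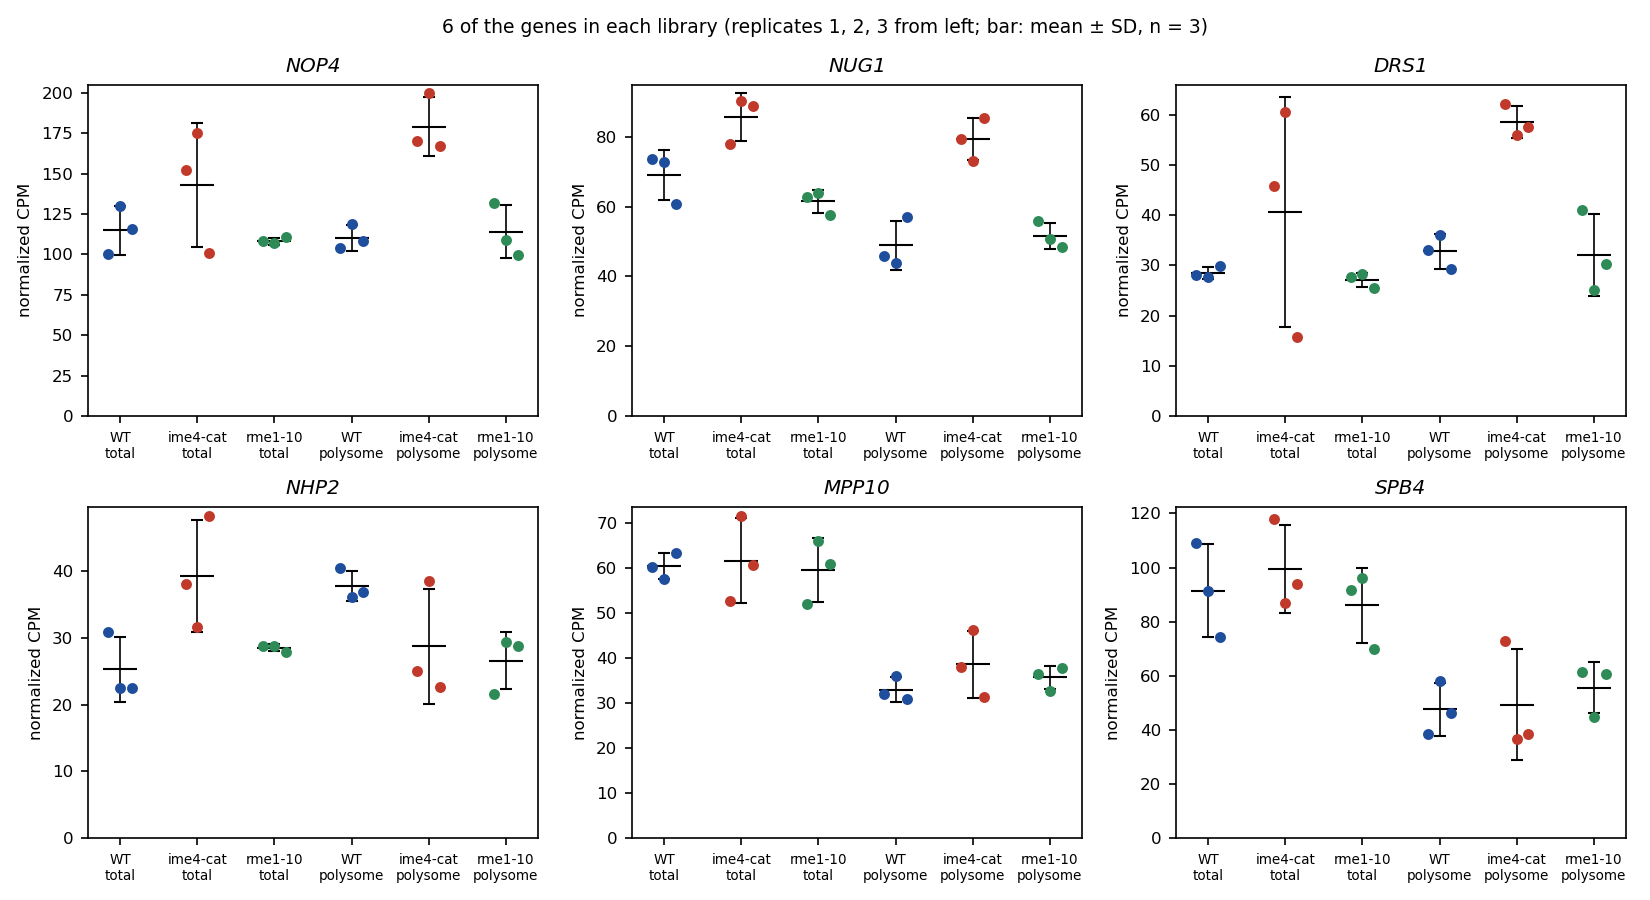
Level (CPM) of *NOP4*, *NUG1*, *DRS1*, *NHP2*, *MPP10* and *SPB4* in each of the 18 libraries, by strain and fraction, with the mean and SD of each group of 3. The *ime4-cat* polysome libraries lie above those of WT for *NOP4*, *NUG1* and *DRS1*, *ime4-cat* total library 3 is low for *DRS1*, and the polysome libraries of *MPP10* lie below the total libraries in each strain.

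The *rme1-10* strain tested the *RME1* site alone. None of the 49 genes passed against WT in either fraction, nor did any of the 5891 genes (0% called, edgeR), and DESeq2 called none of the 49 genes either. *RME1* itself was thus not called, at log2 fold changes of 0.59 (SE 0.17) in polysomal and 0.53 (SE 0.15) in total RNA. The study reported its mRNA as raised in this strain, so an absence of calls here does not show an absence of change. At an unadjusted p under 0.05, 1 of the 49 was higher and 1 lower in polysomes, where 1.24% and 0.934% of all genes were, and none was in total RNA, where 1.02% and 0.289% were. The median log2 fold change of the 49 genes was 0.12 in polysomal and 0.00 in total RNA, and 35 (71.4%) and 24 (49%) of them lay above 0, beside 49.7% and 49.6% of all genes. The *rme1-10* libraries lay wholly above WT for 3 of the 49 genes in polysomes and 4 in total RNA (4.84% of all genes in each), and wholly below for 2 and 1 (4.11% and 4.33% of all genes). The polysome median was 0.03 without *rme1-10* polysome library 1 and 0.19 without library 2, and the total RNA median ran from −0.04 to 0.07 as each library was left out. The smallest p in polysomes belonged to *NSR1*, at 6.83, 11.2 and 3.03 CPM in *rme1-10*. This overlapped the WT libraries given above, at a log2 fold change of 1.48 (SE 0.64, edgeR adjusted p = 1). In total RNA it belonged to *ERB1*, at 24.4, 26.3 and 22.2 CPM in *rme1-10* and 19.1, 17.5 and 17 CPM in WT. Its groups were apart by a small margin, at a log2 fold change of 0.44 (SE 0.23, edgeR adjusted p = 1). The 95% interval lay within 1 log2 unit of 0 for 33 of the 49 genes in polysomal RNA and for 43 in total RNA.

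Set directly against *rme1-10*, with the same *ime4-cat* libraries as above, *ime4-cat* polysomes were higher for *NUG1* (log2 fold change 0.62, edgeR adjusted p = 0.022) and *NOP4* (0.65, adjusted p = 0.027). None of the 49 genes was lower, and 4.45% of all genes were higher and 5.09% lower. *NOP4* was at 132, 109 and 99.9 CPM in *rme1-10* polysomes and *NUG1* at 55.8, 50.8 and 48.4 CPM, all below the *ime4-cat* libraries. The call of *NOP4* was lost without any 1 of the *ime4-cat* polysome libraries or without *rme1-10* polysome library 2 or 3 (edgeR adjusted p from 0.051 to 0.12), and that of *NUG1* without *ime4-cat* polysome library 1 or 3 or *rme1-10* polysome library 2 or 3 (0.06 to 0.092). Without scaling for library composition both calls were lost (edgeR adjusted p = 0.057 for *NOP4* and 0.097 for *NUG1*). With groups taken from titles that of *NUG1* was lost (edgeR adjusted p = 0.34). In total RNA *NUG1* was the gene called, at 77.9, 90.2 and 88.9 CPM in *ime4-cat* and 62.8, 63.9 and 57.7 CPM in *rme1-10*, where 4.7% of all genes were higher and 5.48% lower. These groups did not overlap (log2 fold change 0.48, edgeR adjusted p = 0.03), and the call was lost without *ime4-cat* total library 2 or without any 1 of the *rme1-10* total libraries (0.061 to 0.18). In edgeR it was also lost without scaling for library composition (adjusted p = 0.13), with only the 2 groups compared (0.17) or with groups taken from titles (0.39). Without *ime4-cat* total library 3, *DRS1* passed in both fractions (log2 fold change 0.89 in polysomal and 0.97 in total RNA), beside *NOP4* and *NUG1* higher in both and *DHR2* lower in total RNA (−1.03), with edgeR adjusted p from 4e-04 to 0.027. The background of that fit was 6.46% higher and 6.94% lower in polysomes, and 8.15% and 9.03% in total RNA.

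Within each strain, polysomal mRNA was compared with total mRNA. A log2 ratio below 0 means that an mRNA took a smaller share of the polysome library than of the total library. In WT 5 of the 49 genes were lower in polysomes, none was higher, and 44 did not pass, where 5.26% of all genes were lower and 5.16% higher. The median log2 ratio of the 49 genes was −0.28 and 15 lay above 0 (30.6%), against 0.00 and 50.4% over all genes. Polysome libraries lay wholly below total libraries for 18 of the genes and wholly above for 2, where 19.1% and 18.5% of all genes did so. In *ime4-cat* 2 genes were lower (background 4.35% lower and 3.23% higher), with a median log2 ratio of −0.10, or −0.02 without *ime4-cat* total library 1. In *rme1-10* 3 were lower (background 2.46% lower and 2.05% higher), with a median of −0.14, or −0.09 without *rme1-10* polysome library 2.

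*MPP10* (YJR002W), the scaffold of the Imp3p, Imp4p and Mpp10p complex in the U3 snoRNP, was the gene lower in polysomes in all 3 strains. It was at 32.1, 36.1 and 30.8 CPM in WT polysomes and 60.3, 57.5 and 63.3 CPM in WT total RNA, wholly apart, at a log2 ratio of −0.89 (SE 0.19, edgeR adjusted p = 0.0056). In *ime4-cat* it was at 38.1, 46.2 and 31.4 CPM in polysomes and 52.7, 71.5 and 60.7 CPM in total RNA (−0.68, SE 0.19, edgeR adjusted p = 0.035). In *rme1-10* it was at 36.4, 32.7 and 37.8 CPM against 51.9, 65.9 and 60.9 CPM (−0.76, SE 0.18, edgeR adjusted p = 0.019), again with no overlap. The WT call held in all 29 alternative settings. The *ime4-cat* call was lost without *ime4-cat* polysome library 1 or 3 or total library 2 (edgeR adjusted p from 0.077 to 0.15), and the *rme1-10* call without any 1 of the *rme1-10* polysome libraries or total library 2 or 3 (0.053 to 0.12). The *ime4-cat* call was also lost by DESeq2 (adjusted p = 0.065). In edgeR it was lost too with a replicate block within strain (adjusted p = 0.052) or with only the 2 groups compared (0.29). Over all genes 1.44% were called lower in all 3 strains.

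*SPB4* (YFL002C), a helicase of 60S assembly, was at 38.5, 58.1 and 46.1 CPM in WT polysomes and at 109, 91.3 and 74.2 CPM in WT total RNA. The groups were apart, at a log2 ratio of −0.95 (SE 0.24, edgeR adjusted p = 0.016). In *ime4-cat* it was at 73, 36.6 and 38.4 CPM in polysomes and 118, 87 and 93.9 CPM in total RNA (−0.95, SE 0.24, edgeR adjusted p = 0.022). In *rme1-10* it was at 61.5, 44.8 and 60.6 CPM against 91.7, 96.1 and 70.1 CPM, also apart, with a log2 ratio of −0.63 (SE 0.23) that did not pass (edgeR adjusted p = 0.11). The WT call was lost without WT polysome library 1 or 3 or WT total library 1 or 2 (edgeR adjusted p from 0.052 to 0.075), and the *ime4-cat* call without *ime4-cat* polysome library 2 or 3 (0.084 to 0.11). With only the 2 groups compared the *ime4-cat* call was lost as well (edgeR adjusted p = 0.19).

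The other genes lower in WT polysomes were *NOP7*, *NOG2* and *RPA135*. *NOG2* (YNR053C) was at 10.1, 12.6 and 12.3 CPM in polysomes and 20.6, 23.1 and 21.9 CPM in total RNA, wholly apart, at a log2 ratio of −0.93 (SE 0.29, edgeR adjusted p = 0.044). It is the 1 gene of the 49 with more than 1 coding exon, and its intron holds the snoRNA *SNR191*. *NOP7* (YGR103W), the pescadillo homolog in the complex with Erb1p and Ytm1p, had a log2 ratio of −0.91 (SE 0.23, edgeR adjusted p = 0.018). *RPA135* was at 33.9, 23.6 and 24.6 CPM in polysomes and 44.1, 53 and 48 CPM in total RNA (−0.82, SE 0.25, edgeR adjusted p = 0.042). The call of *NOP7* was lost without WT polysome library 3 or WT total library 2 or 3 (edgeR adjusted p from 0.065 to 0.093). *NOG2* was lost without any 1 of the 6 WT libraries, *rme1-10* polysome library 2 or 3, or any 1 of the *rme1-10* total libraries (0.052 to 0.14). *RPA135* was lost without WT polysome library 2 or 3, any 1 of the WT total libraries, *ime4-cat* polysome library 3, *rme1-10* polysome library 3, or *rme1-10* total library 2 or 3 (0.05 to 0.16). By DESeq2 *NOG2* was lost as well (adjusted p = 0.068). In edgeR it was also lost with no filter beyond 1 count in total (adjusted p = 0.053) or with a replicate block within strain (0.08). *RPA135* was also lost without scaling for library composition (edgeR adjusted p = 0.057) or with groups taken from titles (0.079). *NSR1* had the lowest log2 ratio of the 49 genes in WT, −1.62 (SE 0.60, edgeR adjusted p = 0.09), at 4.59, 3.14 and 0.769 CPM in polysomes and 13.2, 5.64 and 8.51 CPM in total RNA.

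In *rme1-10* the genes lower in polysomes beside *MPP10* were *DHR2* and *RIX7*. *DHR2* was at 6.83, 8.61 and 9.08 CPM in polysomes and 25.6, 19.3 and 21.2 CPM in total RNA (−1.42, SE 0.33, edgeR adjusted p = 0.019). *RIX7* was at 14.8, 7.75 and 6.06 CPM against 23.1, 25.3 and 23.7 CPM (−1.31, SE 0.33, edgeR adjusted p = 0.029). Both were wholly apart, on 6 to 10 reads of *DHR2* in each polysome library and on 13, 9 and 4 reads of *RIX7*. *DHR2* was lost without any 1 of the *rme1-10* polysome libraries or *rme1-10* total library 1 or 3 (edgeR adjusted p from 0.051 to 0.09), and *RIX7* without *rme1-10* polysome library 2 or 3 or total library 2 or 3 (0.084 to 0.16). With groups taken from titles *RIX7* did not pass either, at a log2 ratio of 0.94 (edgeR adjusted p = 0.14).

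The 3 strains share no library in this comparison. The log2 ratio was below 0 in all 3 strains for 26 of the 49 genes (53.1%) and above 0 in all 3 for 7 (14.3%), against 32.6% and 32.5% of all genes. The 4 GTPases and ATPases were below 0 in every strain, with medians of −0.37 in WT, −0.28 in *ime4-cat* and −0.45 in *rme1-10*, while the snoRNP core genes had medians of 0.21 in WT, 0.21 in *ime4-cat* and −0.09 in *rme1-10*. Cytosolic ribosomal protein genes were below 0 in all 3 strains for 18.8% and above 0 in all 3 for 44.9%. Without *ime4-cat* total library 3, the count of the 49 genes called rose to 9 in WT (8 lower and *NHP2* higher, background 9.12% lower and 9.46% higher). It rose to 7 in *rme1-10* (6 lower and *UTP20* higher, background 5.68% lower and 5.45% higher) and stayed at 2 in *ime4-cat* (background 3.89% lower and 3.37% higher).

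**Figure D4:**
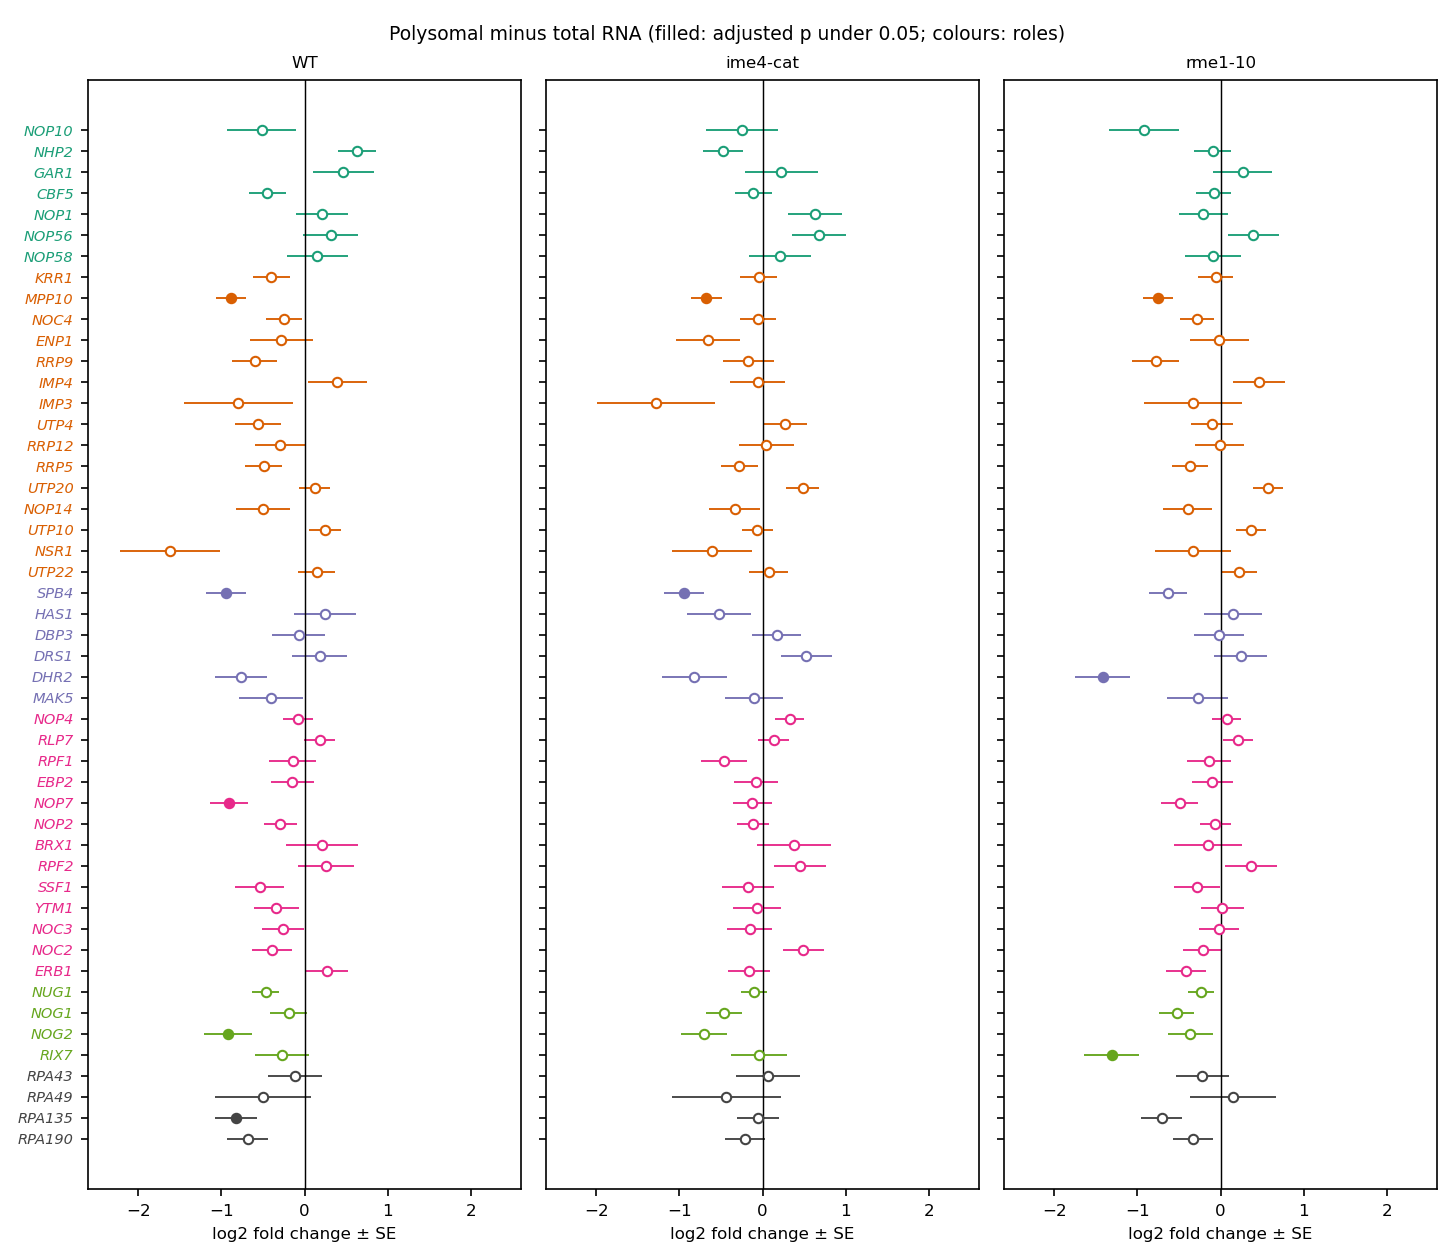
Log2 ratio of polysomal to total RNA for each of the 49 genes in WT, *ime4-cat* and *rme1-10*, with bars for the SE and filled points for an edgeR adjusted p under 0.05 (3 libraries a group). *MPP10* is filled below 0 in all 3 strains, *SPB4* in WT and *ime4-cat*, and the medians of the 49 genes are −0.28, −0.10 and −0.14.

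Whether the polysome ratio itself changed with genotype was tested as an interaction of strain and fraction. None of the 49 genes passed for *ime4-cat* or for *rme1-10*, and neither did any gene tested (0% called, edgeR, with DESeq2 calling none of the 49). At an unadjusted p under 0.05, 4 of the 49 were higher and 1 lower in *ime4-cat*, beside 1.46% and 2.14% of all genes, and 2 were lower in *rme1-10*, beside 0.424%. The smallest p in *ime4-cat* belonged to *NHP2*, with a difference of log2 ratios of −1.11 (SE 0.33, edgeR adjusted p = 1). The median difference was 0.21 in *ime4-cat* and 0.11 in *rme1-10*. It was 0.11 in *ime4-cat* without *ime4-cat* total library 3, and in *rme1-10* it was 0.03 without *rme1-10* polysome library 1 and 0.20 without library 2. These tests were coarse, since the 95% interval lay within 1 log2 unit of 0 for 15 of the 49 genes in *ime4-cat* and for 17 in *rme1-10*. The different sets of genes called in the 3 strains above are therefore not shown to differ between strains.

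The wider pathway was described by lists of genes outside the 49. The background of *ime4-cat* against WT over all genes was 5.96% higher and 6.65% lower in polysomes, and 7.55% and 7.18% in total RNA. Of 52 other ribosome biogenesis genes, 1 was higher in *ime4-cat* polysomes than in WT, the helicase gene *DBP6* (log2 fold change 1.06, edgeR adjusted p = 0.011), and 1 was lower, *RRP1*, a 60S assembly factor (−0.90, edgeR adjusted p = 0.025). Their median was 0.11, and in total RNA it was 0.03, with none higher and 1 lower. Of 11 other RNA polymerase I subunits and initiation factors tested, none was higher and 2 were lower in both fractions. These were *RRN5* of the upstream activating factor, at a log2 fold change of −1.33 in polysomal and −1.15 in total RNA (edgeR adjusted p = 0.00061 and 0.00065), and *RRN11* of the core factor, at −1.27 and −1.23 (edgeR adjusted p = 0.038 and 0.019). The medians of that list were −0.28 and −0.49. Among 7 subunits shared between RNA polymerases none passed in polysomes. In total RNA 1 of these was higher, *RPC40* (log2 fold change 0.59, edgeR adjusted p = 0.048), and none was lower. Among 10 RNA polymerase III subunits 1 was lower in each fraction, and among 7 RNA polymerase II subunits none passed. Among 7 regulators of ribosome biogenesis genes none passed in polysomes, with a median of −0.10. In total RNA 1 of the regulators was lower, *FHL1* (log2 fold change −0.62, edgeR adjusted p = 0.03), and none was higher, with a median of −0.26. Of the cytosolic ribosomal protein genes, 35 of 138 (25.4%) were higher in *ime4-cat* polysomes and 80 of 138 (58%) in *ime4-cat* total RNA. None was lower, and the median log2 fold changes were 0.64 and 0.74. The total RNA results of all these lists include the *ime4-cat* total library that stood apart from its group, and are not given without it.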

How the data were processed

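Poly(A) RNA of 18 libraries was sequenced by the authors. The counting program and its use of strand are not given in the sources used here. The submitters' processing notes name TopHat2 and sacCer3, and the methods and the labels name different library kits. The deposited tables hold raw counts per gene (7126 genes and 5 closing entries for unassigned reads, which were left out of library sizes). Reads that did not align uniquely made up 57.5% to 94.3% of all reads in a table, closing entries included. The range was 80.8% to 94.3% (median 87.8%) in polysome libraries and 57.5% to 88.1% (median 72.5%) in total RNA. WT total library 1 was at the 88.1%. A further 12 samples, from m6A-seq, were left out as a different assay. Counts were fitted with edgeR 4.0.16 in R 4.3.3 (filterByExpr, TMM factors, quasi-likelihood test) over all 18 libraries with 6 groups, so that 5891 genes, all 49 genes of interest included, shared 1 estimate of the spread. Adjusted p-values are Benjamini-Hochberg over those genes, with a threshold of 0.05, and the SE is the log2 fold change divided by the root of F. DESeq2 1.42.0 was an alternative, beside other scalings, filters, groups taken from titles, replicate blocks and each library left out. CPM used TMM-scaled library sizes, and 3 counts set the limit of a 0.

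The genes, lists and tests were chosen with earlier results of these data known. Genes named with every library were, in each role, the highest and the lowest of *ime4-cat* against WT in polysomes, all RNA polymerase I subunits, the 3 genes whose log2 polysome ratio in WT lay farthest from 0, and the smallest p in *rme1-10*. Other named genes (*MPP10*, *DRS1*, *NHP2*, *UTP4*, *NOP7* and those that passed in a single fit) were chosen after their values were seen. Same-numbered libraries of different strains had r from 0.155 to 0.556 in total RNA and from 0.0579 to 0.511 in polysomes (4486 genes). Libraries with different numbers had −0.486 to 0.363 and −0.452 to 0.134, so the numbers were taken to pair libraries in part. The main fit held no replicate term, so its SE and p-values leave this pairing out. With a replicate block the background of *ime4-cat* against WT in polysomes was 7.93% higher and 7.98% lower, against 5.96% and 6.65%. No 2 replicates agreed within sampling noise (chi-square per degree of freedom 1.6 to 22.5). *SSF1* shares sequence with its paralog *SSF2*, and its counts are uncertain. Promoters were read from RefSeq R64.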

Additional observations from a re-analysis of the deposited data

How the results depend on the processing

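Counts below are of the 49 genes called, mostly without the share of all genes called, which also moved between settings. For the WT polysome ratio that share was 5.16% higher and 5.26% lower in the main fit. With a replicate block and without *ime4-cat* total library 3 it was 12.7% and 12.1%. A larger count is therefore not by itself a result about these genes. With groups taken from sample titles, the calls were 1 (*NUG1*, lower) for *ime4-cat* against WT in total RNA, 6 (2 higher, 4 lower) for *ime4-cat* against *rme1-10* in polysomes and 3 (all higher) for the *rme1-10* polysome ratio, which reversed the direction. Titles also gave 5 calls for *rme1-10* against WT in each fraction, 3 for *ime4-cat* against *rme1-10* in total RNA, 12 and 6 for the polysome ratio of WT and *ime4-cat*, and 7 and 11 for its change in *ime4-cat* and *rme1-10*. For *ime4-cat* against WT in total RNA, no gene passed without composition factors, by DESeq2 or with only the 2 groups compared, and 2 passed with a replicate block. Without composition factors 0 passed for *ime4-cat* against *rme1-10* in either fraction, and with only 2 groups 0 passed in total RNA, 8 for the WT ratio and 0 for the *ime4-cat* ratio. The *ime4-cat* ratio gave 1 call by DESeq2 and 1 with a replicate block within strain, and the *rme1-10* ratio 1 with at least 10 counts in every library.

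Settings added after seeing the data gave 4 and 2 calls for *ime4-cat* against WT in polysomal and total RNA (replicate block within fraction). The background of that fit was 10.5% higher and 9.95% lower in polysomal and 13% and 11.4% in total RNA. With the replicate block and without *ime4-cat* total library 3, these comparisons gave 5 and 6 calls. That setting gave 5 for *ime4-cat* against *rme1-10* in total RNA, and 9 each for the WT and *rme1-10* ratios. Background shares there, higher then lower, were 10.7% and 10.6% against WT in polysomal and 12.3% and 11.9% in total RNA. They were 9.76% and 10.5% against *rme1-10*, 12.7% and 12.1% for the WT ratio and 8.8% and 8.78% for the *rme1-10* ratio. Leaving out each library gave 1 to 4 and 0 to 7 calls for *ime4-cat* against WT in polysomal and total RNA, 0 to 3 and 0 to 4 against *rme1-10*, 1 to 9, 0 to 3 and 0 to 7 for the ratios of WT, *ime4-cat* and *rme1-10*, and 0 for the others. In those fits the polysomal log2 fold change of *ime4-cat* against WT ran from −1.28 to 0.21 for *IMP3*, −0.48 to 0.10 for *NOC3*, −0.06 to 0.41 for *RIX7* and −0.32 to 0.30 for *SPB4*, which changed sign, and from 0.03 to 0.44 for *ERB1*, 0.38 to 1.03 for *NOG2*, 0.14 to 0.47 for *NOP56* and −0.62 to −0.21 for *RPA49*. The cause of these shifts was not tested. Without composition factors the median of all genes fell by 0.07 to 0.10 log2 in the 4 comparisons that involve *ime4-cat* and another strain, and the share of higher genes among all genes called moved from 47.2% to 36.2% in polysomes and from 51.3% to 33.2% in total RNA against WT, and from 46.6% to 30.5% and from 46.2% to 26% against *rme1-10*. Depth limits single genes, with a median of 33 reads for a gene in a library.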
